A study of Arabidopsis thaliana and Cardamine hirsuta and Capsella rubella with 102 samples.

Results

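Mock-treated seedlings of *Cardamine hirsuta*, the hairy bittercress, were compared at 9 h and at 1 h after treatment. The comparison used 6 of the 102 RNA-seq samples of the series, 3 at each time, and all 29458 genes of the *C. hirsuta* count table, of which 20866 passed the filter of a mean of 10 counts per library and were tested. The members were set by species, treatment and time, and not by any measured value. Gene names and roles are those of the *A. thaliana* ortholog that the study paired with the *C. hirsuta* gene, and 4169 of the tested genes had such a partner at hand.

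The series compared the response to flg22, a bacterial flagellin peptide that plants sense as a sign of microbes, between 4 Brassicaceae species and further *A. thaliana* accessions. The mock groups are its controls, and the comparison of 9 h with 1 h shows what changed in seedlings that received no peptide. Both groups held 12-day-old whole seedlings of the Oxford accession, with no transgene or mutation named in the labels. They had been moved from agar plates into liquid Murashige and Skoog medium the day before, and the mock treatment consisted of adding more of that medium. Each sample pooled seedlings of 3 wells, and the experiment was carried out independently 3 times. The hour of day at treatment is not given in the sources used here, so the hour of the day and the time since handling cannot be told apart in any of the values. In whole seedlings, fewer cells of a type and less RNA per cell cannot be told apart either.

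Plants keep time with a circadian clock of transcription factors that repress each other in turn. Morning-expressed MYB-like proteins such as LHY hold back evening genes, and the evening complex, which contains LUX, in turn holds back genes of the night and the coming morning. The clock and light together schedule growth, starch breakdown and stress readiness. Submerged tissue can also run short of oxygen, and a small set of genes, among them LBD41 and HRA1, marks that state in *A. thaliana*.

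The 6 libraries held between 24017611 and 31902760 counts on genes, and libraries of one time differed from each other by a median of 0.187 to 0.223 on the log2 scale per gene. ACT2, the actin gene that the study used as its reference, lay at 1660, 1680 and 1900 CPM (counts per 1e6 counts of the library, TMM-scaled) at 1 h and at 1450, 1470 and 1550 CPM at 9 h (log2 fold change -0.23, adjusted P = 0.313, edgeR). Markers of green tissue were abundant in every library, with the photosystem II protein gene PSBP1 between 958 and 2090 CPM. Of 12 root markers only WOX5 had a listed ortholog, at 0.219 to 0.485 CPM, so the root part of these seedlings was hardly covered by markers.

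At an adjusted P below 0.01 and more than 2-fold change (edgeR quasi-likelihood test, Benjamini-Hochberg over all genes), 869 genes were higher at 9 h, 4.16% of those tested, and 455 were lower, 2.18%. Of these, 290 rose and 168 fell by more than 4-fold, and 55 rose and 36 fell by more than 16-fold. The median log2 fold change was 1.65 among the higher and -1.62 among the lower genes, against 0.0045 over all genes tested. The genes that rose went from a median of 10.1 CPM at 1 h to 38.2 CPM at 9 h, and those that fell from 22.4 to 6.79 CPM, where the median gene stood at 15.7 CPM at 1 h. All 869 rose in each of the 3 pairs of libraries with the same replicate number, and 454 of the 455 fell in each, the exception being CARHR060510. The calls rest on these same libraries, so one direction in all pairs, or no overlap between the times, is no further support. The share of all tested genes without such overlap is not given here. In 17 of the called genes all libraries of one time had 3 counts or fewer, and the size of their change is not determined. The number of calls depended on which libraries entered. Without replicate 2 there were 399 higher and 155 lower genes, and without replicate 3 there were 487 and 216.

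**Figure D1:**
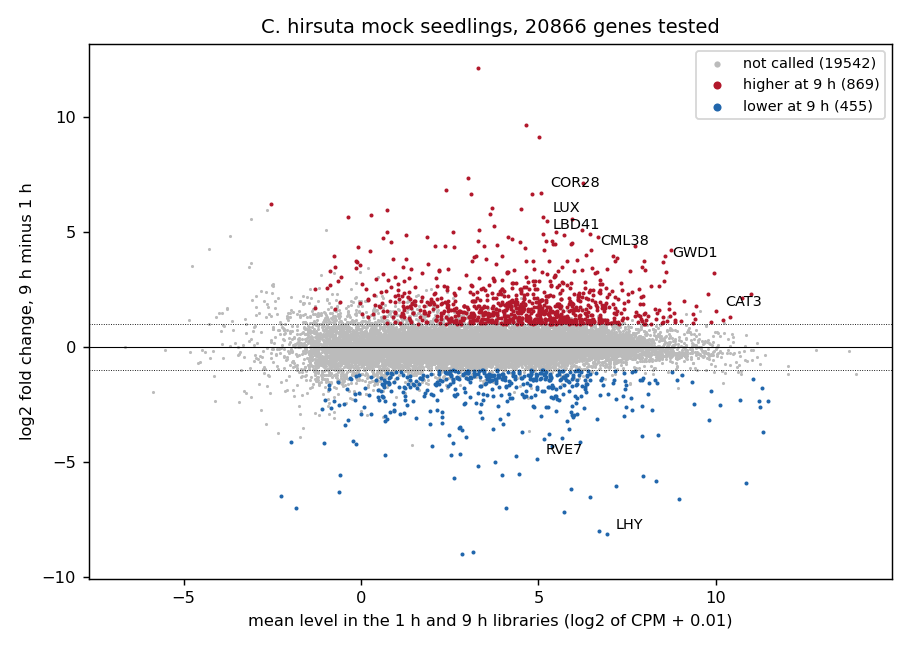
Log2 fold change from 1 h to 9 h (vertical axis) against the mean level in the 6 mock libraries (horizontal axis, log2 of CPM + 0.01) for the 20866 genes tested, one point per gene. The 869 red genes were higher and the 455 blue genes lower at 9 h, and LHY lies at -8.13 and COR28 at 6.69 on the log2 scale.

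Among genes with a listed ortholog, 196 were higher (4.7%) and 88 lower (2.11%). These orthologs are in part a selection for flg22 response, but they include one stretch of chromosome 1 listed without regard to response, in which 55 of 1481 genes were higher (3.71%) and 38 lower (2.57%). The remaining 673 higher and 367 lower genes have no listed ortholog and appear here by identifier only. The list counts below are to be read beside the shares of the genes with a listed ortholog, and no list was tested as a set. The lists and their members were chosen with earlier results of these data known. Their counts and medians therefore describe the members and are no further support.

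Clock genes were among the genes that changed most. Of the 24 clock genes on the list 7 had an ortholog and were tested, of which 3 rose, 3 fell and ELF4-L4, a relative of the evening complex gene ELF4, did not pass. The median of the 7 was 0.15 on the log2 scale, since the falls and rises stand against each other. LHY, the morning MYB-like repressor, stood at 277, 203 and 251 CPM in replicates 1 to 3 at 1 h and at 1.02, 0.606 and 0.971 CPM at 9 h. It fell by 8.13 on the log2 scale, or 281-fold (SE 0.26, adjusted P = 2.45e-10, edgeR). Every 9 h library was far below every 1 h library.

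RVE7, another MYB-like protein of the LHY family, was at 65.6, 60.6 and 53.9 CPM at 1 h and at 2.02, 1.94 and 2.14 CPM at 9 h, a fall of 29.5-fold (log2 fold change -4.88, SE 0.34, adjusted P = 1.94e-07, edgeR). CDF2, a Dof-type repressor of flowering genes, went from 16.1, 18.9 and 19.3 CPM to 3.6, 2.75 and 4.75 CPM (log2 fold change -2.31, SE 0.24, adjusted P = 8.65e-06). In neither gene did the libraries of the 2 times overlap.

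The 3 clock genes that rose are known as genes of the later day and evening in *A. thaliana*. COR28, a cold-regulated gene that acts on the clock, was nearly silent at 1 h, at 0.694, 0.723 and 0.559 CPM, and stood at 69.3, 65.5 and 64.6 CPM at 9 h (log2 fold change 6.69, SE 0.60, adjusted P = 2.26e-06, edgeR). LUX, the DNA-binding member of the evening complex, rose 50.2-fold from 1.61, 1.53 and 1.16 CPM to 67.4, 59.9 and 79.9 CPM (SE of the log2 fold change 0.70, adjusted P = 5.14e-05). GI, a large protein of the photoperiod pathway, rose less, from 22.5, 19.2 and 20.3 CPM to 81.1, 67 and 76.1 CPM (log2 fold change 1.85, SE 0.32, adjusted P = 0.000993). GI did not pass without replicate 3 (adjusted P = 0.0436, edgeR). ELF4-L4 stayed between 14.6 and 19.7 CPM in all 6 libraries (log2 fold change 0.15, adjusted P = 0.621).

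At 24 h, LHY stood at 773, 550 and 496 CPM, above its 1 h level (log2 fold change 1.31 for 24 h against 1 h, adjusted P = 0.000282, edgeR). CDF2 was back at 22.8, 17.8 and 17.4 CPM, and COR28 had dropped to 3.53, 2 and 0.964 CPM. The 24 h comparison uses the same 1 h libraries, and in it 1370 genes (6.57%) were called in either direction, against 226 without replicate 2 and 377 without replicate 3. The genes higher at 9 h had a median log2 fold change of 0.37 at 24 h against 1 h, those lower at 9 h one of 0.07, and all genes one of 0.0017.

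**Figure D2:**
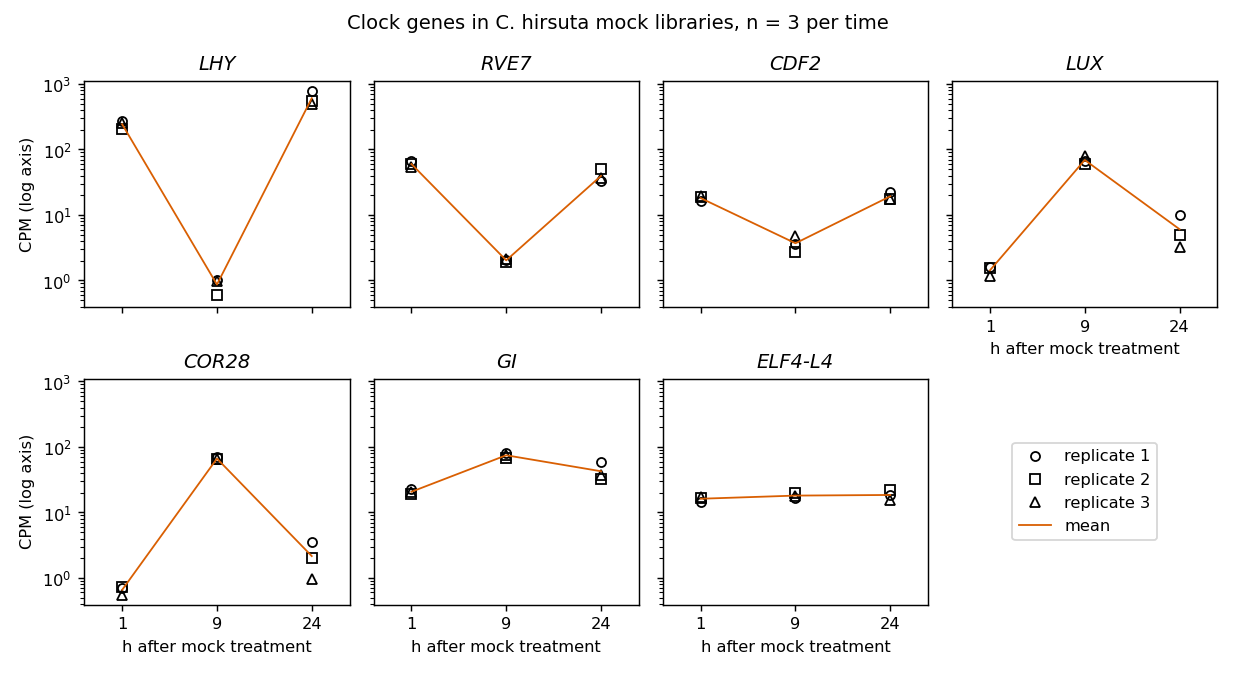
Level in CPM (logarithmic axis) of the 7 clock genes in the C. hirsuta mock libraries at 1, 9 and 24 h, with one symbol per replicate and a line through the means. LHY, RVE7 and CDF2 are low at 9 h, LUX, COR28 and GI are high at 9 h, and ELF4-L4 lies between 14.6 and 21.7 CPM throughout.

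The promoters of the *A. thaliana* orthologs were searched for the evening element AAAATATCT, a motif bound by LHY and its relatives, and for the G-box CACGTG, bound by bHLH and bZIP factors that include the PIF proteins. Both strands were read from 250 bases before to 50 bases after the start of each gene in the RefSeq annotation of TAIR10.1, and the motifs cannot overlap each other. The evening element occurred in 21 of 196 promoters of genes higher at 9 h (10.7%), in 3 of 88 of genes lower (3.41%), in 112 of 3885 of genes not called (2.88%) and in 773 of all 27443 *A. thaliana* genes (2.82%). Within the unselected stretch, it was found for 7 of 55 higher (12.7%) and 2 of 38 lower genes (5.26%). The G-box occurred in 17 higher (8.67%) and 16 lower genes (18.2%), against 9.32% of the genes not called and 7.68% of all genes. Within the unselected stretch it was found for 5 of 55 higher (9.09%) and 5 of 38 lower genes (13.2%). These are matches of letters in *A. thaliana* and were not looked up in *C. hirsuta*, whose genome was not used here.

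The following windows, 5′ to 3′ on the strand of the gene, are shown as examples of the motif in genes that changed in either direction, and the capitals mark the motif. Among the genes picked by the naming rule, which leaves out list members added later, the evening element lay at 7 that rose (LUX, COR28, AT1G68500, GWD1, FLS1, MIK2 and CAT3) and 2 that fell (RVE7 and BBX24), and windows of 7 of these 9 follow. That of AT1G68500 holds it on the opposite strand.
LUX, chr3:17182964-17183022, plus strand: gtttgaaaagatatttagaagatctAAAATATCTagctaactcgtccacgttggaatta
COR28, chr4:16285180-16285223, minus strand: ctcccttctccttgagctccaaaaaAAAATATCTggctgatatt
AT1G68500, chr1:25701709-25701767, plus strand: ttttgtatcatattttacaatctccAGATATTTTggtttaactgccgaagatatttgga
GWD1, chr1:3590899-3590957, minus strand: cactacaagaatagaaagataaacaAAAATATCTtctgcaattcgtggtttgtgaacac
CAT3, chr1:7142868-7142926, plus strand: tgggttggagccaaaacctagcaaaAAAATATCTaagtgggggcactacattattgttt
RVE7, chr1:6308260-6308318, minus strand: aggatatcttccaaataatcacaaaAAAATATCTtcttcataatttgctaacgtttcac
BBX24, chr1:1830002-1830060, minus strand: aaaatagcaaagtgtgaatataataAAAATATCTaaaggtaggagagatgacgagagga
Among the same genes the G-box lay at LHY, CDF2, SPS2, AT2G36630, MKK9, ERF1A and ORA59, which fell, at LUX and LBD41, which rose, and at FMO1, CYCB2;3 and ZAT10, which were not called. It is shown for 3 that fell and for both that rose.
LHY, chr1:37921-37976, minus strand: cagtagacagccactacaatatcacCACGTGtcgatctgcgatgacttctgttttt
CDF2, chr5:15878596-15878651, plus strand: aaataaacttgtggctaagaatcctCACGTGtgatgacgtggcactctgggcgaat
SPS2, chr1:5828805-5828860, plus strand: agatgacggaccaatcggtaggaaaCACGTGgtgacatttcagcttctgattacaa
LUX, chr3:17182824-17182879, plus strand: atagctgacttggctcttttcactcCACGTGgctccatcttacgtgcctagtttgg
LBD41, chr3:538250-538305, minus strand: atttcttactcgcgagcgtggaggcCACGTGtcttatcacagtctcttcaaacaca

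Genes of light signalling fell or did not pass. Of 8 tested, 3 fell and none rose, with a list median of -0.59. PIF4, a bHLH factor that promotes elongation, went from 29.2, 41 and 47.9 CPM to 7.85, 6.3 and 13.7 CPM (log2 fold change -2.13, SE 0.33, adjusted P = 0.000349, edgeR). PIF3, its relative, went from 144, 139 and 90.9 CPM to 41.1, 42.8 and 39 CPM (log2 fold change -1.59, adjusted P = 1.23e-05). BBX24, a B-box protein that moderates light responses, went from 150, 187 and 172 CPM to 51.2, 46 and 68.7 CPM (log2 fold change -1.64, adjusted P = 5.1e-05). Without replicate 2 only PIF3 still passed (adjusted P = 0.039 for PIF4 and 0.0161 for BBX24, edgeR). The blue light receptor gene CRY2 (0.91) stayed below the fold threshold, and HY5, PHYA, HFR1 and HYH did not pass either.

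Of the 6 low oxygen genes tested, 5 rose and none fell, and the list median was 4.22. LBD41, a LOB-domain transcription factor, stood at 1.1, 2.08 and 3.95 CPM at 1 h and at 72.5, 86.5 and 45.4 CPM at 9 h (log2 fold change 4.90, SE 0.49, adjusted P = 6.82e-06, edgeR). HRA1, a trihelix protein that dampens the low oxygen response, went from 5.88, 9.65 and 15.3 CPM to 129, 201 and 130 CPM (log2 fold change 3.98, SE 0.31, adjusted P = 6.43e-07). In both genes the lowest 9 h library was several times above the highest 1 h library.

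SRO5, a protein of the RCD1 family, rose from 2.89, 5.19 and 7.51 CPM to 81, 163 and 103 CPM (log2 fold change 4.47, adjusted P = 8.85e-05, edgeR). LDH1, the lactate dehydrogenase that regenerates NAD without oxygen, rose from 23.3, 28.6 and 31.1 CPM to 139, 242 and 170 CPM (log2 fold change 2.73, adjusted P = 2.67e-05). NIP2;1, a channel for lactic acid, rose from 0.146, 0.085 and 0.519 CPM to 3.35, 8.69 and 8.77 CPM (log2 fold change 4.77, adjusted P = 2.32e-05). ALAAT1, an alanine aminotransferase, did not pass (log2 fold change 0.38, adjusted P = 0.257). Replicate 2 at 9 h was the highest library in SRO5, LDH1 and HRA1, and without replicate 2 the calls of SRO5 and NIP2;1 were lost (adjusted P = 0.0156 and 0.01), leaving 3 of the 5. At 24 h LBD41 was at 1.58, 0.728 and 0.964 CPM and HRA1 at 2.55, 2.04 and 2.75 CPM, below all 9 h libraries.

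Further genes were among the 10 largest rises of genes with an ortholog and a mean of at least 10 counts at both times. AT4G10270, a wound-responsive family gene, rose from 1.83, 2.89 and 5.91 CPM to 61.7, 96.1 and 79.9 CPM (log2 fold change 4.60, adjusted P = 9.33e-07, edgeR), and AT4G24110 from 1.21, 0.893 and 2.16 CPM to 26.3, 53.3 and 29.5 CPM (log2 fold change 4.67, adjusted P = 1.02e-06). CML38, a calmodulin-like calcium sensor and the called one of 5 such genes, rose from 4.35, 9.05 and 14.5 CPM to 116, 229 and 163 CPM (log2 fold change 4.21, adjusted P = 4.85e-05). All 3 were called, but CML38 only with replicate 2 (adjusted P = 0.0135 without it). The oxygen level in the wells is not given in the sources used here.

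**Figure D3:**
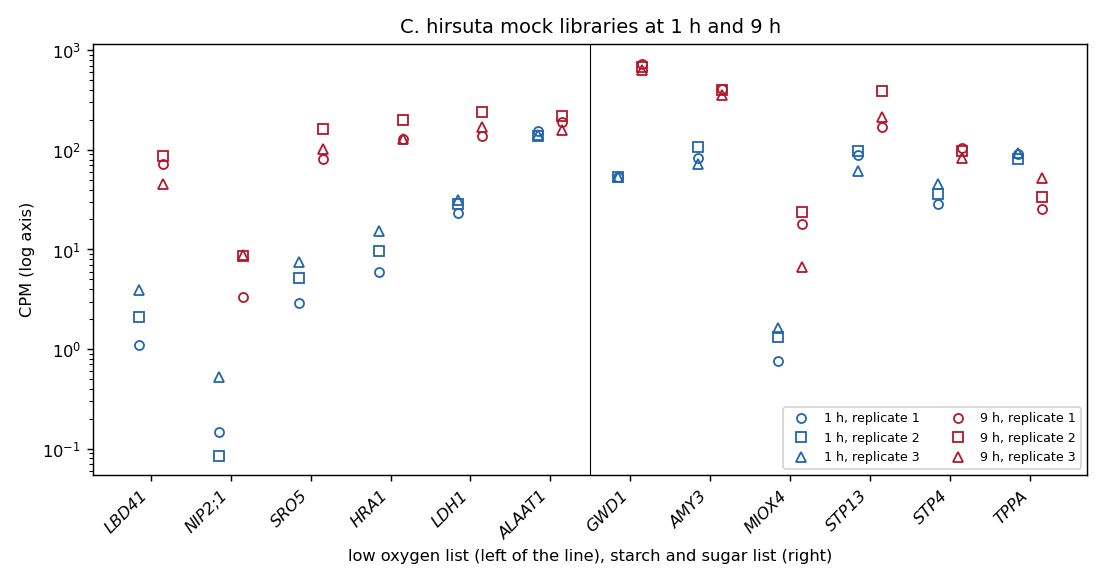
Level in CPM (logarithmic axis) of 6 low oxygen genes and 6 starch and sugar genes in each mock library, blue at 1 h and red at 9 h, with one symbol per replicate. LBD41, NIP2;1, SRO5, HRA1 and LDH1 are higher in every 9 h library, ALAAT1 is not called, and TPPA is lower.

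In starch and sugar metabolism 5 of 20 genes rose and 1 fell, with a list median of 0.33. GWD1, the dikinase that phosphorylates starch and so opens it to degradation, differed little between replicates, at 53.1, 53.3 and 52.8 CPM at 1 h and 735, 675 and 639 CPM at 9 h. This is a 12.9-fold rise (log2 fold change 3.69, SE 0.18, adjusted P = 1.45e-08, edgeR). AMY3, a plastid alpha-amylase, rose from 83.4, 107 and 71.7 CPM to 407, 402 and 357 CPM (log2 fold change 2.16, SE 0.15, adjusted P = 2.21e-07). GWD1 and AMY3 stayed called in every left-out library.

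The other called members concern sugar transport and sugar signals. The monosaccharide transporter gene STP13 went from 87.8, 97.5 and 61.7 CPM to 168, 391 and 213 CPM (log2 fold change 1.67, adjusted P = 0.00256, edgeR), and STP4 from 28.9, 36.2 and 45.1 CPM to 105, 97 and 83.5 CPM (log2 fold change 1.37, adjusted P = 9.61e-05). MIOX4, which opens the inositol ring, rose from 0.767, 1.32 and 1.64 CPM to 18, 24 and 6.6 CPM (log2 fold change 3.72, adjusted P = 0.000654). TPPA, a trehalose-phosphate phosphatase, fell from 90, 81.6 and 93.8 CPM to 25.2, 33.8 and 51.7 CPM (log2 fold change -1.31, adjusted P = 2.32e-05). STP13 lost its call without replicate 2 (adjusted P = 0.0862) or 3 (0.047), STP4 without replicate 2 (0.0132), and MIOX4 without replicate 1 (0.0247) or 2 (0.0206).

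Most photosystem genes did not pass. Of 10 tested in photosystems and chlorophyll, 3 rose and none fell, with a median of -0.15. VDE, the xanthophyll cycle enzyme that forms zeaxanthin, rose from 18.6, 26.7 and 24.6 CPM to 145, 120 and 142 CPM (log2 fold change 2.58, SE 0.19, adjusted P = 3.67e-07, edgeR). LFNR2, a leaf ferredoxin-NADP reductase, rose from 331, 410 and 320 CPM to 943, 896 and 995 CPM (log2 fold change 1.42, adjusted P = 8.06e-06). HEMA2, a glutamyl-tRNA reductase of tetrapyrrole synthesis, rose from 30.6, 32.3 and 26 CPM to 69, 77.7 and 62 CPM (log2 fold change 1.23, adjusted P = 0.00552). HEMA2 lost its call without replicate 2 (adjusted P = 0.0792, edgeR) or 3 (0.0677). PSAO, a photosystem I subunit gene, stood at 1460, 2010 and 1640 CPM at 1 h and 792, 647 and 871 CPM at 9 h and did not pass (log2 fold change -1.14, adjusted P = 0.032). It passed as lower with only the 6 libraries (adjusted P = 0.00428), in the DESeq2 Wald test (0.0053) and without replicate 1 (0.00389). SPS2, a solanesyl diphosphate synthase of plastoquinone synthesis and one of the 10 largest falls, went from 79.3, 76.5 and 81.1 CPM to 15.3, 17.1 and 15.1 CPM (log2 fold change -2.32, SE 0.17, adjusted P = 3.72e-07).

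Nitrogen and mineral genes gave 4 rises and no fall among 21, with a median of 0.51. BT2, a scaffold protein that responds to nitrate and sugar, rose from 14.8, 18.6 and 16 CPM to 286, 221 and 267 CPM (log2 fold change 3.97, SE 0.37, adjusted P = 3.31e-06, edgeR), and by 24 h stood at 2.77, 3.6 and 1.89 CPM. SPX1, a phosphate sensor that restrains the starvation response, rose from 4.71, 4.93 and 5.47 CPM to 54, 73.7 and 32.7 CPM (log2 fold change 3.40, adjusted P = 1.02e-05) and stayed up at 51.6, 82.4 and 46.3 CPM at 24 h. The 2 genes thus differed in course after 9 h. The nitrate transporter gene NRT1.7 (1.59, adjusted P = 0.0093) and the glutamate dehydrogenase gene GDH2 (1.19, adjusted P = 0.00364) rose less, and both lost their call without replicate 2 or 3 (adjusted P = 0.0633 and 0.124 for NRT1.7, 0.0351 and 0.0228 for GDH2), GDH2 also without replicate 1 (0.0389). NRT2.6, a nitrate transporter relative, fell from 18, 4.38 and 3.75 CPM to 0.652, 1.82 and 0.301 CPM (log2 fold change -3.04, adjusted P = 0.00733), with one 1 h library far above the rest. It lost its call without replicate 1 (adjusted P = 0.0666) or 3 (0.0886). The ammonium transporter gene AMT2 passed as higher without replicate 1 (adjusted P = 0.00291), with only the 6 libraries, in the DESeq2 Wald test and in limma.

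In glucosinolate and sulfur metabolism 3 of 18 rose and none fell, with a median of 0.60. CYP79B3, which turns tryptophan into indole-3-acetaldoxime, went from 12.1, 7.44 and 7.9 CPM to 31.7, 66.6 and 20.2 CPM (log2 fold change 2.11, adjusted P = 0.000963, edgeR). SDI2, a gene that limits glucosinolates under low sulfur, went from 14.4, 5.14 and 6.39 CPM to 32, 38.3 and 27.4 CPM (log2 fold change 1.95, adjusted P = 0.000461). APR1, the enzyme that reduces activated sulfate, went from 46.5, 25.2 and 27.1 CPM to 78.3, 89.6 and 46.5 CPM (log2 fold change 1.17, adjusted P = 0.00437), where the lowest 9 h library equalled the highest 1 h library. Without replicate 3 none of the 3 passed (adjusted P = 0.0113, 0.019 and 0.042). SDI2 and APR1 were also lost without replicate 2 (0.0404 and 0.0504) and APR1 without replicate 1 (0.0112).

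Genes related to abscisic acid (ABA) gave 3 rises and no fall among 16, with a median of 0.18, led by ERD7, a dehydration-responsive gene that went from 9.35, 9.22 and 7.19 CPM to 75.2, 95.8 and 83.5 CPM (log2 fold change 3.32, SE 0.31, adjusted P = 3.13e-06, edgeR). PRODH1, proline dehydrogenase (1.56, adjusted P = 0.00659), and ERD10, a dehydrin (1.09, adjusted P = 0.00252), also rose, but lost their calls without replicate 2 (adjusted P = 0.163 and 0.0305) and without replicate 1 (0.048 and 0.0162), ERD10 also without replicate 3 (0.0382). The auxin list gave 3 falls and no rise among 22, with a median of -0.08. AT4G34810, a SAUR-like gene that is not on this list, rose (log2 fold change 4.57, adjusted P = 2.8e-05, edgeR). Its rise started from at most 8 counts in a library at 1 h. ARGOS, an organ size gene, went from 81, 81 and 64.7 CPM to 22.5, 25.5 and 20.5 CPM (log2 fold change -1.73, SE 0.13, adjusted P = 5.77e-07) and passed in every left-out library. The efflux carrier gene PIN7 (2.01-fold lower, adjusted P = 0.00987) and SAUR53 (-1.23, adjusted P = 0.00877) lay at the thresholds and were lost without replicate 2 (adjusted P = 0.186 and 0.0652) or 3 (0.0544 and 0.0746), SAUR53 also without replicate 1 (0.119).

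In the gibberellin and brassinosteroid list 1 of 8 rose, GA2OX2, which inactivates gibberellin (1.03, adjusted P = 0.00757, edgeR), and 1 fell, GA3OX1, which makes it (-1.27, adjusted P = 0.00425), with a list median of -0.03. Of 9 cytokinin genes, CYP735A2, which forms trans-zeatin, fell (-1.11, adjusted P = 0.00852), and CKX5, which degrades cytokinin, passed in the DESeq2 Wald test (-2.04, adjusted P = 0.00499), limma (0.00753) and without replicate 2 (0.00872). None of the 3 calls of these lists survived without replicate 1 (adjusted P = 0.0209, 0.0212 and 0.0319) or 3 (0.08, 0.116 and 0.112), nor without replicate 2 (0.0624, 0.0317 and 0.0475). None passed among 12 ethylene, 18 jasmonate and 13 salicylic acid genes, whose list medians were 0.33, 0.05 and -0.06. The largest values there were -1.62 for the ACC synthase gene ACS2, with at most 7 counts in a library, 1.23 for the allene oxide cyclase gene AOC2, at 1.06, 2.76 and 2.99 CPM and then 2.79, 10.8 and 4.08 CPM, and 1.47 for FMO1, with at most 7 counts in a library. Their adjusted P was 0.25, 0.155 and 0.487. Nearer to a call in the ethylene list were the ACC synthase gene ACS11 (1.46, adjusted P = 0.0137), which passed with only the 6 libraries (0.00854) and in the DESeq2 Wald test (0.00078), and the ACC oxidase gene ACO5 (0.98, adjusted P = 0.000825), which passed without replicate 3 (1.17, adjusted P = 0.00502).

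Few of the listed immunity genes were called in seedlings that had received no flg22. Among 35 pattern-triggered immunity genes 3 rose and 1 fell (median 0.11), against 4.7% and 2.11% of all genes with a listed ortholog. With only the 6 libraries 6 rose, and in the DESeq2 Wald test 5, as the receptor-complex kinase genes BIK1 and SOBIR1 then passed (1.24 and 1.19 in the fit of 18 libraries, adjusted P = 0.0318 and 0.0181), and with the 6 libraries also the danger peptide gene PROPEP3. Over all genes, 908 and 1064 were higher in these settings, in the same order, against 869 in the fit of 18 libraries. RBOHD, the NADPH oxidase of the immune oxidative burst, rose from 13.1, 12.7 and 13.6 CPM to 71.5, 92.4 and 75 CPM (log2 fold change 2.61, SE 0.34, adjusted P = 9.42e-05, edgeR). PER4, a peroxidase used as a marker of the response, rose from 1.5, 6.93 and 1.96 CPM to 11.7, 76.3 and 20.6 CPM (log2 fold change 3.33, SE 0.53, adjusted P = 0.000469). Replicate 2 was the highest library of PER4 at both times. MIK2, a receptor kinase, went from 45, 52.4 and 34 CPM to 147, 180 and 137 CPM (log2 fold change 1.84, adjusted P = 0.0052), and MKK9, a MAP kinase kinase, fell from 51.7, 78 and 63.6 CPM to 29.6, 24.6 and 28.5 CPM (log2 fold change -1.21, adjusted P = 0.00046). RBOHD passed in every left-out library, while PER4 was lost without replicate 3 (adjusted P = 0.0311) and MIK2 and MKK9 without replicate 2 (0.0658 and 0.0423) or 3 (0.0534 and 0.0131).

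None of 19 WRKY, 15 stress MYB and NAC and 8 zinc finger factor genes passed, the largest values being 1.63 for WRKY8, -1.79 for MYB74 and 0.81 for ZAT10 (adjusted P = 0.111, 0.0189 and 0.0785, edgeR). The WRKY median was 0.57. WRKY8 passed with only the 6 libraries (adjusted P = 0.00573), and WRKY46 and MYB74 in the DESeq2 Wald test (0.00231 and 0.00506). Of 11 ERF and DREB factors 3 fell, ERF1A (-1.17, adjusted P = 0.00274), ORA59 (-1.15, adjusted P = 0.00208) and ERF5 (-1.01, adjusted P = 0.00803), and none rose. None of the 3 passed without replicate 2 (adjusted P = 0.0869, 0.0636 and 0.15) or 3 (0.0278, 0.0292 and 0.0185). Of 11 heat and ER stress genes, the class B heat shock factor gene HSFB2B fell from 41.4, 36.7 and 29.4 CPM to 14, 12.2 and 9.11 CPM (log2 fold change -1.61, SE 0.22, adjusted P = 0.000142). Its relative HSFB1 fell from 55.4, 41.2 and 32.7 CPM to 15.9, 26 and 11.4 CPM (log2 fold change -1.28, adjusted P = 0.00273) and was lost without replicate 1 (0.0136) or 3 (0.0823). The chaperone genes BIP3 and HSP70B passed as lower with only the 6 libraries (adjusted P = 0.00784 and 0.00081), BIP3 also in the DESeq2 Wald test (0.000435).

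Of 6 antioxidant and glutathione transferase genes 3 rose, and the list median was 1.73. CAT3, a catalase that removes hydrogen peroxide, went from 350, 632 and 621 CPM to 1690, 1490 and 1430 CPM (log2 fold change 1.54, SE 0.24, adjusted P = 0.000436, edgeR). GSTU25 went from 10.6, 9.48 and 12.1 CPM to 83.5, 163 and 22.7 CPM (log2 fold change 2.80, adjusted P = 0.00154), and GSTU1 from 75.5, 80.2 and 57.8 CPM to 313, 264 and 229 CPM (log2 fold change 1.92, adjusted P = 0.00351). Without replicate 2 all 3 calls were lost (adjusted P = 0.0219, 0.101 and 0.0742, edgeR). GSTU25 was also lost without replicate 1 (0.0177) and GSTU1 without replicate 3 (0.0338). Glutathione transferases of this class and SAUR genes have close copies, and reads that fit several places were left out of the counts, so their levels are uncertain.

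In the flavonoid list 1 of 16 genes rose and 1 fell. FLS1, flavonol synthase, rose from 11.9, 14.7 and 8.22 CPM to 56.1, 59.7 and 35.3 CPM (log2 fold change 2.12, SE 0.29, adjusted P = 0.000122, edgeR). UGT78D2, a flavonoid glucosyltransferase, went from 9.1, 9.22 and 6.03 CPM to 4.59, 3.72 and 3.78 CPM (log2 fold change -1.01, adjusted P = 0.0051) and was lost without replicate 1 (0.0253), 2 (0.133) or 3 (0.0228). None passed among 7 cell division and 7 cell wall loosening genes, where CYCB2;3 had -0.54 (adjusted P = 0.12) and the expansin gene EXPA11 had -1.30 (adjusted P = 0.0447). EXPA11 passed when replicate 1 was left out (adjusted P = 0.00186).

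**Figure D4:**
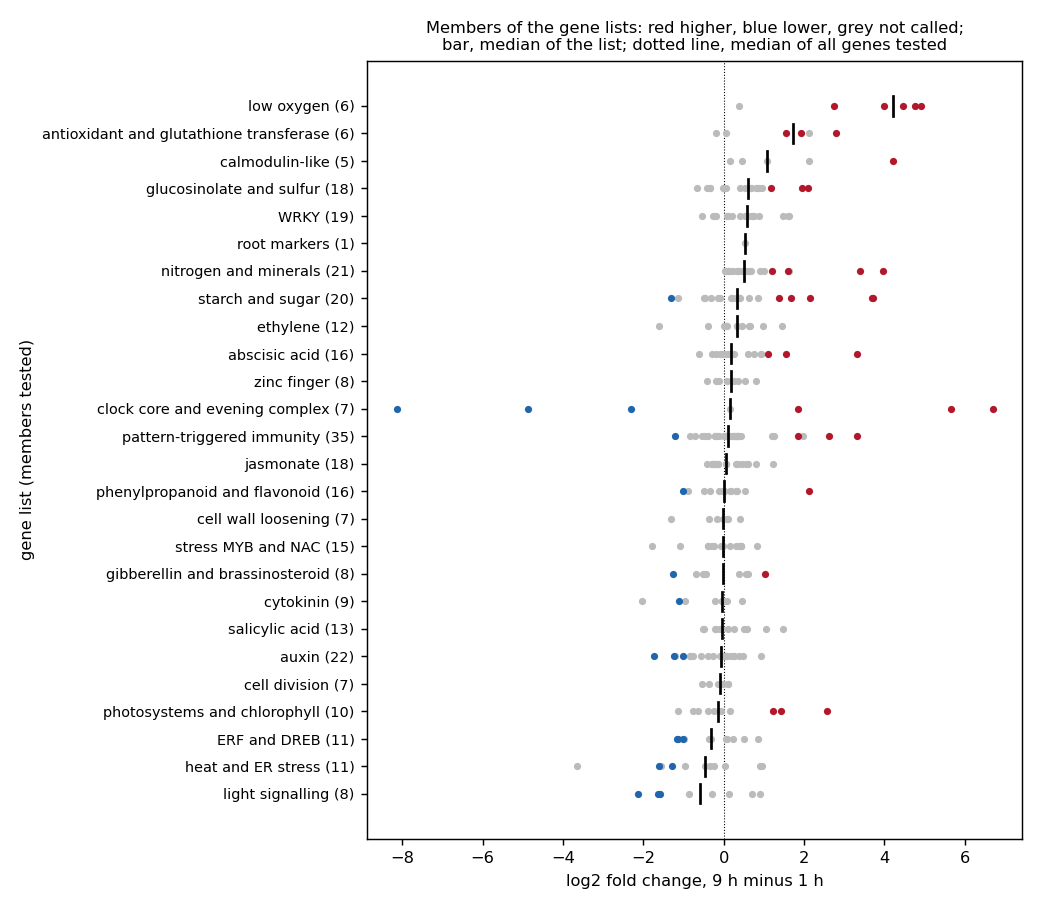
Log2 fold change from 1 h to 9 h for each member of the gene lists (one row per list, members tested in brackets), red where higher, blue where lower and grey where not called, with a bar at the list median and a dotted line at the median of all genes, 0.0045. The low oxygen list has the highest median at 4.22, and the clock list spans -8.13 to 6.69. The lists were chosen with earlier results of these data known, and the order of their medians was not tested.

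The other large changes among genes with an ortholog were in genes of less certain role. AT1G07050, which encodes a CCT-motif protein, rose from 0.731, 0.34 and 0.2 CPM to 22.7, 20.6 and 29.9 CPM (log2 fold change 5.77, SE 0.39, adjusted P = 1.58e-07, edgeR) and was at 0.517, 0.4 and 0.723 CPM at 24 h. AT1G16850 rose from 0.511, 0.298 and 0.918 CPM to 19.9, 18.4 and 19.7 CPM (log2 fold change 5.08, adjusted P = 5.9e-07), and unlike AT1G07050 still stood at 12.7, 8.22 and 7.37 CPM at 24 h. AT1G68500 rose from 0.511, 0.595 and 0.279 CPM to 10.4, 10.4 and 8.44 CPM (log2 fold change 4.39, adjusted P = 2.22e-07). The levels at 1 h were near the bottom of the measurable range in all 3 genes, and the 9 h libraries agreed closely.

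Among the falls, AT2G36630, a gene of the TauE/SafE family of putative anion exporters, went from 83.2, 78.4 and 74.1 CPM to 9.13, 13.9 and 11.2 CPM (log2 fold change -2.79, SE 0.14, adjusted P = 1.36e-08, edgeR) and reached 216, 220 and 192 CPM at 24 h. SR45a, a splicing factor gene, went from 139, 107 and 72.6 CPM to 24.6, 27.1 and 19.3 CPM (log2 fold change -2.14, adjusted P = 2.63e-05). LEA3, a late embryogenesis abundant protein gene, went from 5.37, 11.5 and 6.15 CPM to 1.24, 0.929 and 1.14 CPM (log2 fold change -2.74, adjusted P = 0.00024). In all 3 the 1 h and 9 h libraries stood apart, and the 24 h level of SR45a (108 to 131 CPM) was again in the range of 1 h. AT1G18810, a relative of phytochrome kinase substrate genes (-2.82, adjusted P = 0.000288), and AT1G58170, a dirigent-like gene (-2.16, adjusted P = 0.000173), fell too. LEA3 and AT1G58170 were lost without replicate 2 (adjusted P = 0.0333 and 0.0181) and AT1G18810 without replicate 3 (0.0116).

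Genes without a listed ortholog changed as strongly. CARHR142180 stood at 215, 179 and 232 CPM at 1 h, at 0.466, 0.566 and 1.44 CPM at 9 h and at 388, 325 and 281 CPM at 24 h (log2 fold change of 9 h against 1 h -8.00, SE 0.34, adjusted P = 4.01e-09, edgeR). CARHR086860 went from 89.3, 99.9 and 123 CPM to 0.559, 0.162 and 1.51 CPM and was at 124, 110 and 107 CPM at 24 h (log2 fold change -7.15, adjusted P = 3.43e-08). Both had the course of LHY, low at 9 h and high at the other times. CARHR135020 rose from 0.657, 1.19 and 1.44 CPM to 155, 121 and 181 CPM (log2 fold change 7.11, adjusted P = 2.29e-06), and CARHR188940 from 0.511, 0.638 and 0.559 CPM to 45.9, 39 and 83.3 CPM (log2 fold change 6.64, adjusted P = 2.23e-05). At 24 h both were below 7 CPM in every library.

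The flg22-treated seedlings, harvested at the same times in other libraries, gave 1447 higher (6.93%) and 1746 lower genes (8.37%) at 9 h against 1 h. Of the mock calls, 596 were also higher with flg22 (68.6% of the mock list and 41.2% of the flg22 list), and 291 also lower (64% and 16.7%). The genes higher in mock had a median log2 fold change of 1.56 with flg22, those lower one of -1.45, and all genes one of -0.03. The flg22 calls depended on the libraries too, with 901 higher and 586 lower genes without replicate 2, of which 314 (78.7% of the mock list and 34.9% of the flg22 list) and 113 (72.9% and 19.3%) were shared with mock calls made without it. The clock genes moved alike in direction, LHY by -7.43 and COR28 by 5.43 with flg22. Others called in mock did not pass with flg22, among them RBOHD (0.52, adjusted P = 0.211, edgeR), PER4 (-0.45, adjusted P = 0.457), FLS1 (-0.54, adjusted P = 0.139) and GSTU25 (0.26, adjusted P = 0.689). With flg22 the change also holds the response to the peptide at both times. A small value there therefore does not show that the rise seen in mock was absent. The difference between the treatments was not tested here. No gene was lower in mock and higher with flg22, and 5 were higher in mock and lower with flg22, namely HEMA2 (-1.67 with flg22) and, named after their values were seen, AT1G24650, AT3G52520, AT5G35735 and CARHR074920.

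The change from 1 h to 9 h was also set beside that of mock seedlings of *A. thaliana* (Col-0), *C. rubella* and *E. salsugineum*, in a fit over 4321 orthologs and 24 libraries that tested the difference of the changes. The change in *C. hirsuta* differed from that in *A. thaliana* for 86 orthologs (1.99%), from that in *C. rubella* for 158 (3.66%) and from that in *E. salsugineum* for 108 (2.5%). These numbers fell to 12 to 18, 27 to 67 and 27 to 37 when replicate 1, 2 or 3 was left out of all species. Calls in each species were compared in the unselected stretch only. There *A. thaliana* had 4.82% of 1432 tested genes higher and 3.28% lower, *C. rubella* 5.07% and 4.01% of 1421, and *E. salsugineum* 4.3% and 2.82% of 1418. Of the *C. hirsuta* higher genes, 19 were also higher in *A. thaliana* (36.5% of the *C. hirsuta* list and 27.5% of the other), 19 in *C. rubella* (35.2% and 26.4%) and 18 in *E. salsugineum* (34% and 29.5%). Of the lower genes, 14 (38.9% and 29.8%), 20 (55.6% and 35.1%) and 17 (47.2% and 42.5%) were shared in the same order.

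LHY fell in all 4 species. Its log2 fold change was -6.96 in *A. thaliana* Col-0, -7.38 in *C. rubella* seedlings and -6.06 in *E. salsugineum*, and none of the differences from *C. hirsuta* passed (adjusted P = 0.447, 0.482 and 0.124, edgeR). The differences, with their SE, were -1.19 (0.81), -0.93 (0.75) and -2.09 (0.76), so sizeable ones remain possible. COR28 rose by 6.71, 7.91 and 5.03 and GWD1 by 3.34, 3.27 and 2.59 in the same order, with no difference passing. RVE7 fell further in *C. hirsuta* than in *A. thaliana*, where it changed by -2.20 (difference -2.71, SE 0.45, adjusted P = 0.000842). In *C. rubella* and *E. salsugineum* RVE7 changed by -3.90 and -4.10, and neither difference from *C. hirsuta* passed. LUX rose by 2.16 in *A. thaliana* and 3.298 in *E. salsugineum*, less than in *C. hirsuta* (differences 3.41 and 2.33, SE 0.47 in each, adjusted P = 0.000128 and 0.00403), and by 6.16 in *C. rubella*. GI rose more in *C. hirsuta* than in *A. thaliana* (0.45, difference 1.36, adjusted P = 0.00601) and *C. rubella* (0.15, difference 1.69, adjusted P = 0.000618). In *E. salsugineum* GI rose by 1.47, and the difference did not pass (0.385, adjusted P = 0.543, edgeR).

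Of the low oxygen genes, LBD41 rose by 3.06, 4.85 and 2.62 and HRA1 by 3.72, 3.86 and 2.99 in Col-0, *C. rubella* and *E. salsugineum*, and no difference from *C. hirsuta* passed (lowest adjusted P = 0.0426, edgeR). The differences were larger for genes of other groups. AT1G16850 changed by 0.27 in *A. thaliana* and -0.45 in *E. salsugineum*, against 5.08 in *C. hirsuta* (differences 4.83 and 5.48, adjusted P = 1.24e-05 and 1.1e-06). AT4G34810, a SAUR-like gene, was low in *C. hirsuta*, at 0.0365, 0.34 and 0.0798 CPM at 1 h and 2.7, 5.09 and 2.51 CPM at 9 h. At 1 h it stood at 5.58 to 10.4 CPM in *A. thaliana*, 9.1 to 13.9 in *C. rubella* and 19.6 to 24.8 in *E. salsugineum*. Its rise in *C. hirsuta*, from at most 8 counts in a library at 1 h, exceeded that in the 3 other species (differences 4.39, 3.45 and 4.07, adjusted P = 0.000128, 0.001 and 0.000174). SPX1 did not pass in *E. salsugineum* (-0.20, difference 3.61, adjusted P = 1.58e-05). UGT78D2 fell in *C. hirsuta* but had positive values in *A. thaliana* (0.93, difference -1.95, adjusted P = 0.00245) and *E. salsugineum* (0.89, difference -1.89, adjusted P = 0.00308). In *C. rubella* UGT78D2 changed by -0.94, and the difference did not pass. SPS2 fell more in *C. hirsuta* than in each of the others (differences -1.16, -1.84 and -1.10, adjusted P = 0.00188, 1.23e-05 and 0.00312).

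**Figure D5:**
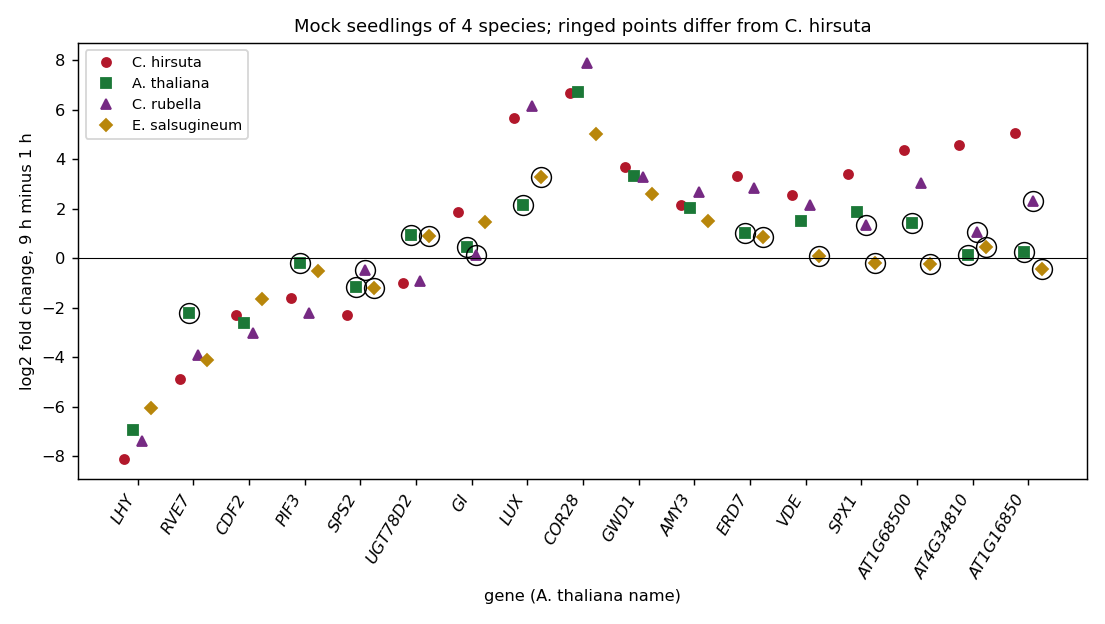
Log2 fold change from 1 h to 9 h in mock seedlings of C. hirsuta, A. thaliana, C. rubella and E. salsugineum (vertical axis) for 17 named genes, with a ring where the change differs from that of C. hirsuta by the test of the difference. LHY falls in all 4 species, and AT1G16850 stands at 5.08 in C. hirsuta and at 0.27 in A. thaliana.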

How the data were processed

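RNA-seq was measured in whole seedlings. The authors trimmed reads (cutadapt 1.5, CASAVA 1.8.2 per the submitters' processing notes), mapped them to the *C. hirsuta* genome with TopHat2 and counted reads per gene with HTSeq 0.6.0. The deposited tables hold these raw counts per gene and library, for a stranded kit. HTSeq leaves out reads that fit several places. Per library, 15.6 to 21.5% of the entries sat in its summary lines (3.68 to 5.72% not unique), and these lines were left out of library sizes and tests. Counts were made by sequencing without molecular identifiers.

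Genes whose mean reached 10 counts over the 18 *C. hirsuta* libraries were kept and scaled by TMM. The factors were 0.896 to 1.08 over the 18 libraries and 0.938 to 1.07 in the 6 compared. The genes were fitted with edgeR 4.0.16 (R 4.3.3, quasi-likelihood F test) in all 18 libraries with a replicate term, as in the study's own model. A gene was called at a Benjamini-Hochberg adjusted P below 0.01 over all genes and an absolute log2 fold change above 1. CPM are counts divided by the TMM-scaled library size in units of 1e6, and the SE is the log2 fold change over the root of F. Species were compared by the difference of the 9 h against 1 h changes over 24 mock libraries without a replicate term. Alternatives were DESeq2 1.42.0, limma 3.58.1 voom, other size factors, no filter, only the 6 libraries, no replicate term and leaving out each replicate. The fits were tested on simulated data.

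The replicate number marks an independent experiment, in which treatments ran side by side. Over genes, the deviations of same-numbered 1 h and 9 h libraries correlated at 0.00661, 0.204 and 0.22, against -0.257 to 0.0593 for other pairs. Libraries of a group differed by more than counting noise, so none was a duplicate. Named genes were the 10 largest rises and falls among called genes with an ortholog, at least 10 counts on average at both times and one direction in all pairs, all clock genes tested, up to 4 called members of each other list or its largest value where none was called, 2 rises and 2 falls without an ortholog, the 3 largest called differences to *A. thaliana*, and ACT2; LDH1, STP4, TPPA, CRY2, PSAO, PSBP1, ALAAT1 and the list members that passed only under an alternative (such as BIK1, CKX5, ACS11 and AMT2) were added after their values were seen. The 26 gene lists and members were chosen with earlier results of these data known. The ortholog pairs (4542) came from the study's supplements, of which parts are not used here. Promoters came from RefSeq for TAIR10.1. The remaining libraries of the series were not analysed here, apart from the flg22, 24 h and other-species mock libraries named.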

Additional observations from a re-analysis of the deposited data

Results flagged for a closer look

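Named genes are listed here because the test of the difference found their change from 1 h to 9 h in *C. hirsuta* to differ from that in another species. Each value is the log2 fold change in *C. hirsuta* minus that in the other species, from edgeR over 24 mock libraries, at 3 libraries per species and time. With 1 replicate left out, 11 to 17 of the 86 differences to *A. thaliana* were still called. For *C. rubella* these were 27 to 61 of 158, and for *E. salsugineum* 27 to 33 of 108. Which of the named differences were among them was not looked at.

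Against *A. thaliana*, 8 genes had the higher value in *C. hirsuta*, namely AT1G16850 (4.83), AT4G34810 (4.39), LUX (3.41), AT1G68500 (2.95), CYP79B3 (2.54), ERD7 (2.27), ERD10 (1.73) and GI (1.36). The lower value was found for RVE7 (-2.71), MKK9 (-2.07), UGT78D2 (-1.95), PIF3 (-1.43) and SPS2 (-1.16). MKK9 and UGT78D2 had positive changes in *A. thaliana*, 0.85 and 0.93, and negative ones in *C. hirsuta*.

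Against *C. rubella*, the value was higher in *C. hirsuta* for AT4G34810 (3.45), AT1G16850 (2.78), SPX1 (2.03), SR45a (1.89), RBOHD (1.72), GI (1.69) and LFNR2 (1.38). It was lower for ERF5 (-2.98), EXPA11 (-2.80), AT2G36630 (-2.75), ERF1A (-2.35) and SPS2 (-1.84). The ethylene response factor genes ERF5 and ERF1A rose in *C. rubella* (1.96 and 1.15) and fell in *C. hirsuta*.

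Against *E. salsugineum*, the value was higher in *C. hirsuta* for AT1G16850 (5.48), AT1G68500 (4.60), AT4G34810 (4.07), SPX1 (3.61), VDE (2.49), ERD7 (2.43), LUX (2.33) and PRODH1 (2.22). It was lower for UGT78D2 (-1.89), ARGOS (-1.75) and SPS2 (-1.10). AT1G16850, AT4G34810 and SPS2 are in all 3 comparisons, which share the *C. hirsuta* libraries.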

How the results depend on the processing

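None of the 79 named genes changed direction under an alternative in which it was tested. This is no further support, since the naming rule took mainly genes already called in these same libraries. Reversal was not looked at for the other calls. The counts moved most with the libraries: leaving out one replicate gave 399 to 728 higher and 155 to 421 lower genes (399 and 155 without replicate 2, 487 and 216 without replicate 3), 226 to 932 calls for 24 h against 1 h (226 and 377 without replicates 2 and 3) and 1487 to 2918 for flg22 (1487 without replicate 2, against 3193). Of the calls made without replicate 2, 391 of 399 higher and 149 of 155 lower genes were also calls with all libraries. Under the remaining alternatives the higher genes numbered 803 to 1064 and the lower genes 416 to 601. The fit without the replicate block gave 803 higher and 416 lower genes, of which 789 and 407 were shared with the paired fit.

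Differences to *A. thaliana*, *C. rubella* and *E. salsugineum* numbered 12 to 18, 27 to 67 and 27 to 37 when one replicate was left out, and 198, 273 and 170 in the DESeq2 Wald test, against 86, 158 and 108 in edgeR. With a replicate block within each species they numbered 105, 167 and 104, of which 73, 132 and 87 were shared with the fit without it. Of the 79 named genes 68 were called, and 32 of these stayed called in each of the 9 alternatives; 90 of their 612 values missed the thresholds, and for CAT3, GSTU25, PIN7, ERF5 and others named in the text these include leaving out replicate 2. With 3 libraries per time, changes near 2-fold are at the edge of what could be called.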
